A study of Mus musculus with 4 samples.

Results

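Nrf2, the protein encoded by Nfe2l2, is a transcription factor that switches on genes against oxidative and electrophilic stress. In unstressed cells Keap1, the adaptor of a Cul3 ubiquitin ligase, holds Nrf2 and sends it to degradation. Oxidants and electrophiles modify Keap1, after which Nrf2 accumulates, pairs with small Maf proteins and binds antioxidant response elements near its target genes. Much of this control acts on the Nrf2 protein, which was not measured here. In the lung, airway epithelium and alveolar cells use these targets to remove quinones, heme and peroxides and to make glutathione.

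The 10 genes described here were chosen by name, as the sensor pair Nfe2l2 and Keap1 and 8 commonly used targets, from the 32285 genes of each count table. Nqo1 reduces quinones and Hmox1 degrades heme. Gclc and Gclm are the catalytic and modifier subunits of the enzyme that starts glutathione synthesis, Slc7a11 is the cystine carrier that feeds it, and Gsr restores oxidised glutathione. Txnrd1 keeps thioredoxin reduced and Srxn1 repairs peroxiredoxins. A further 65 genes of the pathway were described as lists, and the choice of both was made with earlier results of these data known.

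The samples were lung cryosections of C57BL/6J mice, 1 section each from the upper pulmonary branches of 2 animals of the vaped group (V) and 2 of the non-vaped group (NV), a male and a female in each. V mice breathed aerosol from JUUL pens filled with Peach Ice vape juice, in whole-body exposure of 4 h a day and 5 days a week that lasted 9 weeks and began at about 8 weeks of age, and NV mice breathed air. Visium spots each captured the mRNA of several cells, and every captured molecule was counted once by its unique molecular identifier (UMI). Sections held 473 to 2053 spots and 6957392 to 34308556 UMIs, 4933 spots in all. Each group had 2 mice, so p-values measure the spread between 4 sections, which includes what tissue each section held.

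The V male section stood apart. It had no spots assigned to the upper airway, against 226 and 124 spots in the NV male and female and 470 in the V female. Its cardiac muscle markers summed to 18.2 CPM (UMIs scaled to a section total of 1000000), with 3673 to 7015 in the other sections, and its club cell markers to 288, with 2296 to 13707. Of the 5 ciliated cell markers 3 were at 0. Neutrophil markers summed to 580 CPM in the V male and to 75.1 to 160 in the other sections, and AT1 markers to 2238 and to 926 to 1213. Mitochondrial genes took 5.10% of its UMIs and 9.72% to 10.9% elsewhere. Fewer cells of a type and less RNA per cell cannot be told apart in these sums, and V against NV values of the members over the whole section and the parenchyma are therefore given with and without this section.

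The element that Nrf2 binds is usually written as TGA followed, after a gap, by GC. As the sequence feature that these genes might share, promoters from 250 bases before to 50 after each RefSeq start (GRCm38.p6) were searched on both strands for TGACNNNGC and TGAGNNNGC, letters that can overlap the AP-1 site. Of the 10 genes, 7 had an entry (Hmox1, Gclc and Gsr did not) and 5 of these held a match, whereas 30.8% of 27025 genes did. Nqo1 and Keap1 had no match in this window. A gene with several starts counted where the window of any of them held a match. Txnrd1 had more than 1 start, and its match lay at a start further downstream, whereas the window of its most upstream start held 0. The matches are a description of letters and not of binding. For each of the 5 genes 1 match is shown, on the strand of the gene with the matched letters in capitals, to let the glutathione, thioredoxin and peroxiredoxin genes and Nfe2l2 itself be compared.
Gclm, chr3:122245414-122245441, plus strand: ctcccgggcGCACCGTCAactctcacga
Txnrd1, chr10:82859105-82859132, plus strand: tggatttttGCTTTGTCAttctgacacg
Srxn1, chr2:152105470-152105497, plus strand: aattcacccTGAGTCAGCggccgggcgc
Slc7a11, chr3:50443692-50443719, minus strand: aatgttggcGCTTTCTCAagctggagtt
Nfe2l2, chr2:75704885-75704912, minus strand: cagcccaccTGACTCCGCcatgccccgg
The Srxn1 match began 45 bases before the start and was 1 of 3 in its window. It reads as TGAGNNNGC in the direction of the gene, as the Nfe2l2 match reads as TGACNNNGC, whereas those of Gclm, Txnrd1 and Slc7a11 read as the reverse complement.

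All 10 genes had UMIs in all 4 sections. Nfe2l2 had 9134 UMIs in 3386 spots and Gclc 4871 in 2548 spots, whereas Nqo1 had 278 in 254 spots and Slc7a11 21 in 21 spots. Slc7a11 was counted 4 and 5 times in the NV male and female and 7 and 5 times in the V male and female, which was too few for any test. Statements on Nqo1 rest on 37 to 136 UMIs per section, with 15 to 55 in the parenchyma and 22 to 81 in the upper airway of a section. To compare spots of unequal depth, each spot was thinned to 3000 UMIs. The share of spots with an Nfe2l2 UMI then was 36.9% (male) and 34.9% (female) in NV and 36.2% and 37.0% in V sections, and the exact 95% binomial intervals (counting error only) all overlapped. Without thinning, which lets depth enter, 575 of 842 spots of the NV male, 336 of 473 of the NV female, 924 of 1565 of the V male and 1551 of 2053 of the V female had an Nfe2l2 UMI, so that the V sections had the lowest and the highest share.

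**Figure D1:**
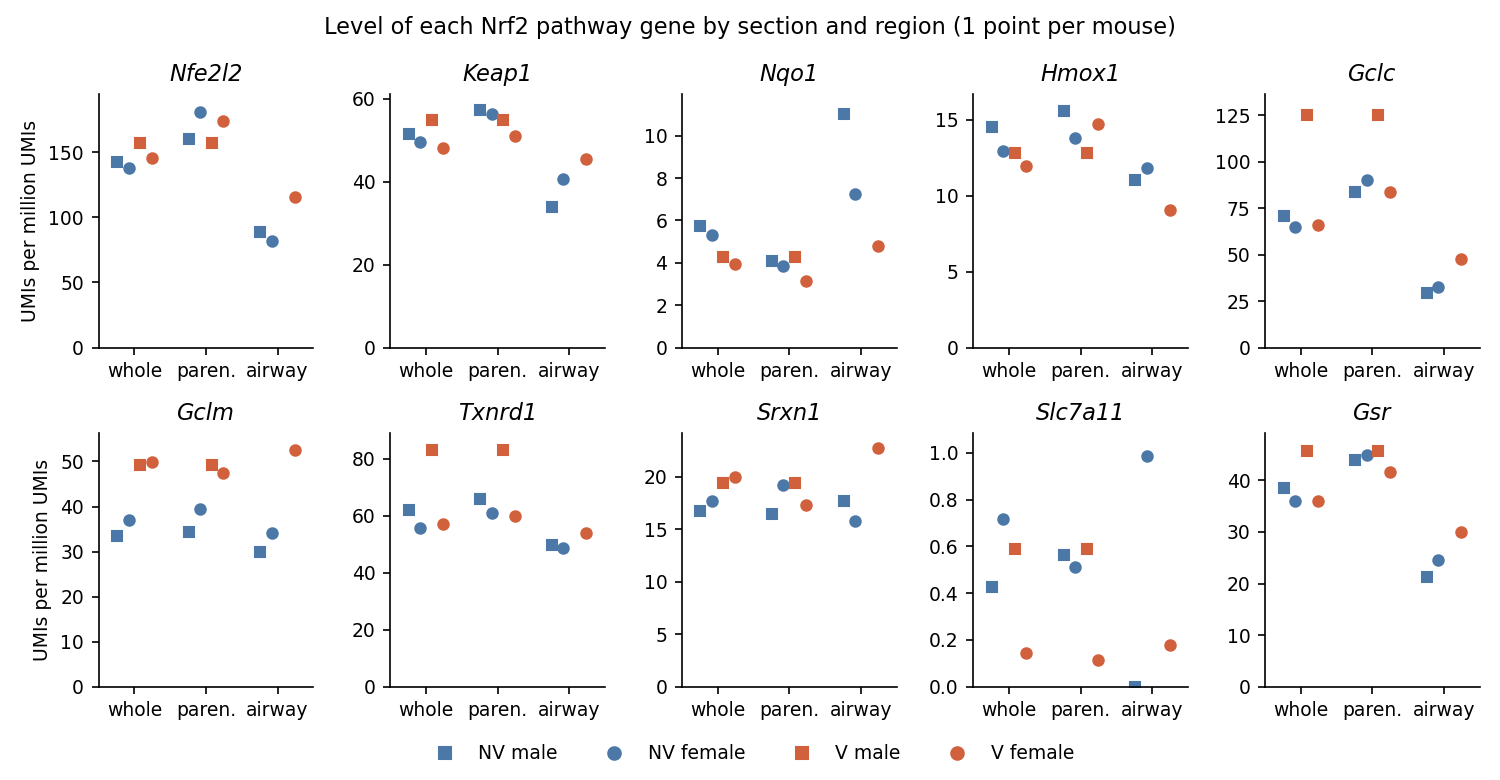
Level of each of the 10 genes in CPM of total UMIs (vertical axis, linear, from 0), over the whole section, the parenchyma and the upper airway. Each point is 1 mouse, blue NV and red V, squares males and circles females. Gclc and Txnrd1 stand out in the V male over the whole section and the parenchyma, whereas in the airway, where that mouse has no point, Gclc is highest in the V female. Gclm is above both NV mice in each V mouse plotted, and Slc7a11 is below 1 CPM throughout.

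Whether vaping changed the pathway over the whole section was asked first. No member was called, and the values fell on both sides of 0. UMIs were summed per mouse, scaled by TMM and compared by edgeR's quasi-likelihood test. A gene was called where its adjusted p (Benjamini-Hochberg) was under 0.05 and its log2 fold change was above 0.25 or below -0.25. From here CPM are TMM-scaled within the comparison, and of 2 values of a group the male's comes first. Of 14570 genes tested 0 were called (0%), 248 had an unadjusted p under 0.05 (1.7%), and DESeq2's Wald test called 8 genes and no member. With the V male left out 21 genes were called (0.139%) and with the V female left out 811 (5.47%), the lone V mouse being assumed to vary like the NV mice, and no member in either. Of the members 9 passed the filter on low counts, and 7 of the 9 had a positive log2 fold change, as had 53.7% of all genes tested.

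Neither gene of the sensor pair was called, and each had a log2 fold change smaller than its standard error. Nfe2l2 was at 143 and 140 CPM in the NV mice and 144 and 156 CPM in the V mice. Both V values lay above both NV values, by little in the male, and the log2 fold change was 0.08 (SE 0.18, adjusted p = 0.9997, edgeR) and 0.13 without the V male. Keap1 was at 51.0 ± 1.08 CPM in NV and 51.1 ± 0.926 in V mice (SD, n = 2 each), and its log2 fold change of 0.00 (SE 0.14) changed sign with the scaling and came to 0.0058 without the V male.

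Gclm had the largest value of the 9. Its levels were 33.5 and 37.7 CPM in the NV mice and 45.2 and 53.7 CPM in the V mice. Both V mice were above both NV mice, and the log2 fold change was 0.47 (SE 0.18, unadjusted p = 0.0511, adjusted p = 0.9997, edgeR). Without the V male it was 0.58 (adjusted p = 0.54, edgeR). Gm6061, a pseudogene on the same strand, overlaps Gclm, and how reads were shared between them is not known.

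Gclc rested on 1 section. It was at 71.1 and 65.9 CPM in the NV mice and 115 and 70.9 CPM in the V mice, a log2 fold change of 0.44 (SE 0.29, adjusted p = 0.9997, edgeR) that came to 0.04 without the V male. Thinned to 3000 UMIs, 31.5% of V male spots had a Gclc UMI (95% interval 29.1% to 34.1%), and 20.4% to 20.9% did in the other sections. Txnrd1 also was highest in the V male, with 62.3 and 56.4 CPM in NV and 76.3 and 61.1 CPM in V mice, and its log2 fold change went from 0.21 to 0.03 without the V male. Eid3, on the same strand, overlaps Txnrd1. The AT1, neutrophil and mitochondrial values given above also set the V male apart, and their part in these results was not tested.

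Nqo1 and Hmox1 lay below 0. Nqo1 was at 5.78 and 5.41 CPM in the NV mice and 3.94 and 4.26 CPM in the V mice (log2 fold change -0.45, SE 0.31). Hmox1 was at 14.6 and 13.2 CPM in NV and 11.7 and 12.8 CPM in V mice (-0.17, SE 0.20). For both genes each V mouse was below each NV mouse, and neither passed the test (adjusted p = 0.9997 for both, edgeR). Cardiac muscle markers also were lower in the V sections (18.2 and 3673 CPM of total UMIs) than in the NV sections (6573 and 7015). Nqo1 was higher in cardiac muscle-rich spots, as given below, and the part of this tissue in its value was not tested. Srxn1 and Gsr had log2 fold changes of 0.17 (SE 0.19) and 0.10 (SE 0.15). Without the V male Nqo1 came to -0.41, Hmox1 to -0.13, Srxn1 to 0.29 and Gsr to 0.020. In all, 2 of 9 members lay higher in every V mouse, as did 14.7% of all genes, and 2 of 9 lower, as did 15.5%.

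**Figure D2:**
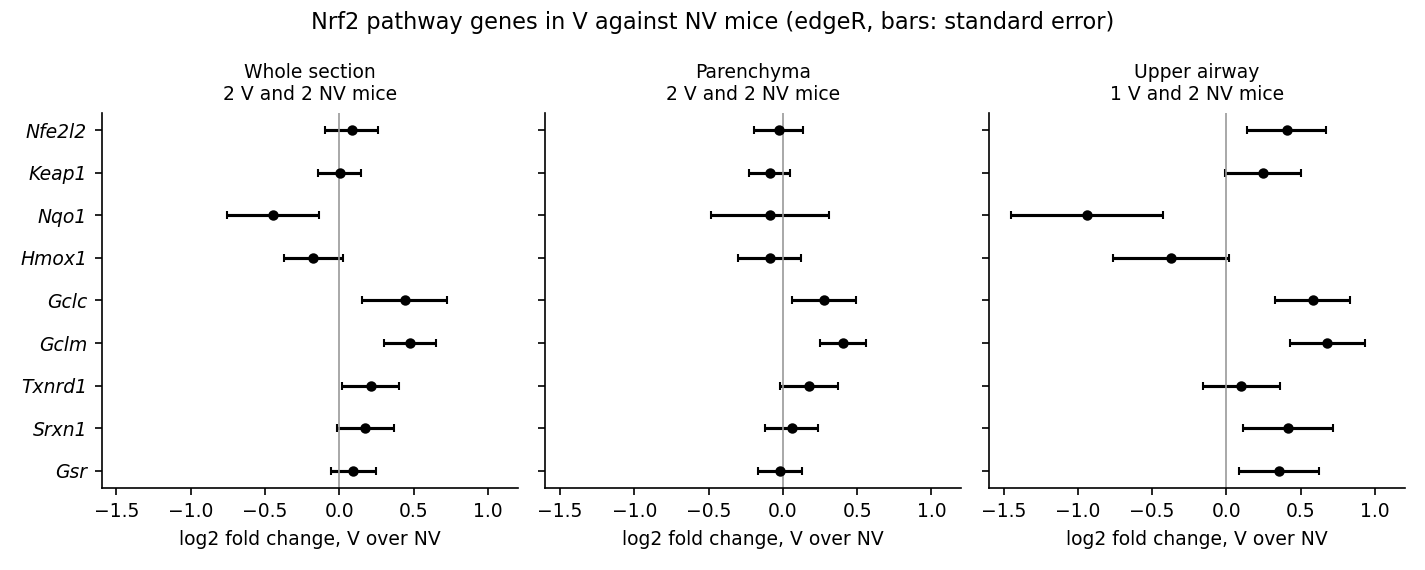
Log2 fold change of V over NV (horizontal axis) with its standard error for the 9 members tested, over the whole section, the parenchyma and the upper airway. No value is called in any panel. Gclm is to the right of 0 in all 3, at 0.47, 0.40 and 0.68, and Nqo1 to the left, at -0.45, -0.09 and -0.94.

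Sections held parenchyma and upper airway in unequal parts, so the groups were compared within each region. Clusters of spots were assigned to the parenchyma by 6 marker genes, Sftpc and Cldn18 among them, and to the upper airway otherwise. The clusters largely followed the sections. In the parenchyma only Gclm kept both V mice above both NV mice (1 of 9 members, against 16.2% of genes), and only Keap1 had both below (1 of 9, against 17.2%). Of 14265 genes 0 were called (0%), 434 had an unadjusted p under 0.05 (3.04%), and the Wald test called 11 genes and no member. With the V male left out 80 genes were called (0.555%) and with the V female left out 1161 (8.15%), and again no member.

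Gclm was at 35.0 and 38.6 CPM in the NV mice and 48.7 and 48.5 CPM in the V mice. The V mice lay close together, at 48.6 ± 0.202 CPM, and the NV mice at 36.8 ± 2.54 (SD, n = 2 each). Its log2 fold change was 0.40 (SE 0.15, unadjusted p = 0.0438, adjusted p = 0.9994, edgeR) and also 0.40 without the V male. Gclc was at 85.2 and 88.1 CPM in the NV mice and 124 and 85.7 CPM in the V mice, a log2 fold change of 0.28 (SE 0.22) that became -0.016 without the V male. Txnrd1 went from 0.18 (SE 0.20) to -0.056 in the same way. For the other 6 members the parenchyma values lay between -0.09 and 0.06 with standard errors of 0.14 to 0.40, and 5 of these 6 changed sign when 1 mouse was left out, Keap1 being the exception. Without the V male Nfe2l2 was at 0.064, Keap1 at -0.13, Nqo1 at -0.30, Hmox1 at 0.020, Srxn1 at 0.0035 and Gsr at -0.065.

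In the upper airway the V female alone stood against both NV mice. Gclm was at 52.0 CPM in the V female and at 31.04 and 33.8 in the NV mice (log2 fold change 0.68, SE 0.25, adjusted p = 0.31, edgeR). Gclc was at 46.9 CPM against 30.6 and 32.2 (0.58, SE 0.25, adjusted p = 0.45, edgeR), and Nfe2l2 at 114 against 91.8 and 80.9 (0.40, SE 0.27). Nqo1 was at 4.76 CPM in the V female and at 11.4 and 7.15 in the NV mice (-0.94, SE 0.51). Of 13006 genes 147 were called (1.13%), 127 of them higher (0.976%), and 0 of 9 members. The test assumes that the lone V mouse varies like the NV mice. This region held other tissue in the V female: cardiac muscle markers summed to 6045 CPM of total UMIs there and to 18321 and 13397 in the NV male and female, and club cell markers to 16275 against 4285 and 3661. Their part in these values was not tested.

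Agreement between the 7 targets tested was then read within each sex, 1 V mouse against 1 NV mouse. Over the whole section 5 targets were higher in V in both pairs, 2 (Nqo1 and Hmox1) were lower in both and 0 were opposite, while 27.2% of all genes were higher in both and 26.1% lower in both (49.4% were higher in V in the male pair and 51.7% in the female pair). In the parenchyma 6 targets were higher in the V male (49.8% of genes) and 3 in the V female (49.8%), 2 (Gclm and Txnrd1) in both (26.2%) and 4 in the V male alone (23.6%). The agreement of the targets over the whole section was thus not found within the parenchyma. Few of these ratios had a counting interval that left out 1. In the male pair over the whole section Gclc was 1.62 times as high in V (95% counting interval 1.48 to 1.78), Gclm 1.35 times (1.17 to 1.55) and Txnrd1 1.22 times (1.105 to 1.36). In the female pair Gclm alone of the targets had an interval above 1, with a ratio of 1.42 (1.25 to 1.63) over the whole section and 1.26 (1.06 to 1.503) in the parenchyma. These intervals do not cover the spread between mice.

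**Figure D3:**
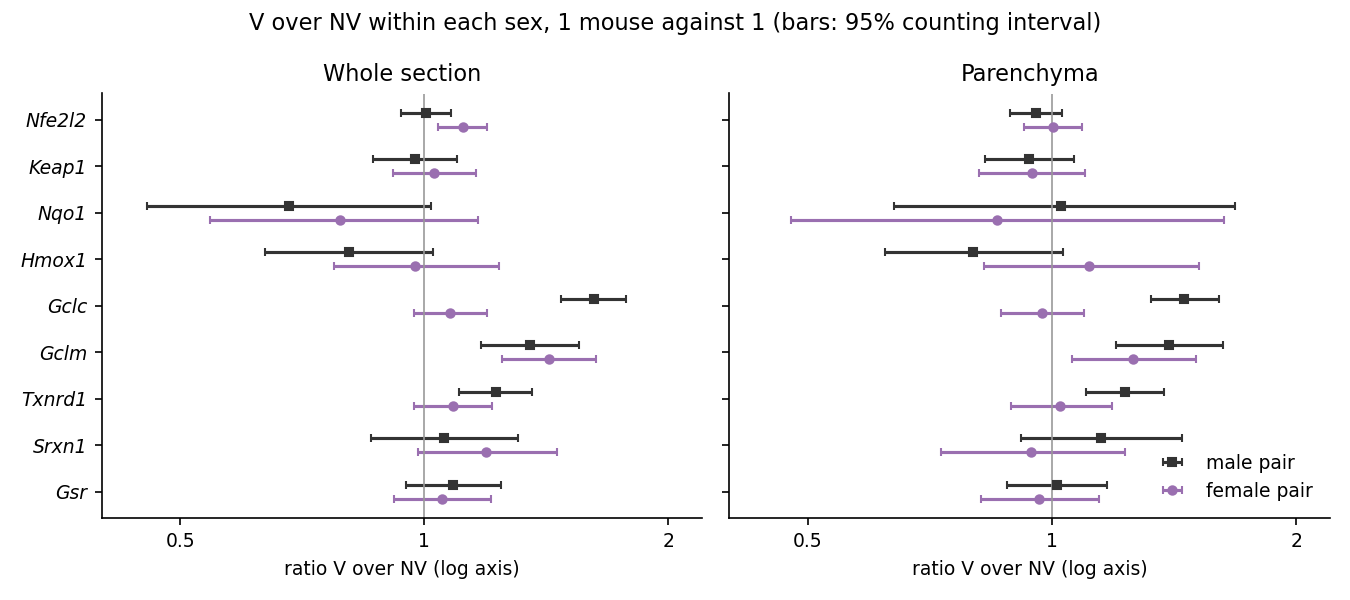
Ratio of the V to the NV mouse of the same sex (horizontal log axis) with its 95% counting interval for the 9 members tested, squares for the male and circles for the female pair. Gclm is above 1 in both pairs and both panels, whereas Gclc in the parenchyma is at 1.46 in the male and 0.973 in the female pair.

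Correlation between the members was described at 2 scales. Over single spots, among the 36 pairs of the 9 members, over spots thinned to 3000 UMIs, Pearson's r had a median of 0.0137 and -0.0163 in the NV sections (731 and 421 spots) and 0.00365 and 0.0026 in the V sections (1363 and 1829 spots), and reached at most 0.125. Counts this sparse carry little correlation, and spots of a section share their library. Over 9 sums of a section and cluster, which also share libraries, Pearson's r was 0.94 for Gclc with Gsr, 0.93 for Gclc with Nfe2l2 and -0.86 for Nqo1 with Nfe2l2. These pairs lie at the ends of the range. Many other pairs were also far from 0, among them Keap1 with Gsr (0.90), Nfe2l2 with Keap1 (0.87), Gclc with Gclm (0.52) and Nqo1 with Gclm (-0.68). Some were near 0, with 0.0015 for Nfe2l2 with Srxn1 and -0.0023 for Hmox1 with Gclm. These values used CPM of total UMIs, and the sums came from both regions, so r also follows region and scaling.

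Regions of the same mouse were compared next. Upper airway here means all spots outside the parenchyma clusters. For both NV mice and then the V female, cardiac muscle markers there summed to 18321, 13397 and 6045 CPM of total UMIs. The parenchyma had 2831, 2050 and 1392. Brown adipose tissue markers were also higher in the airway of each. Airway club cell markers came to 4285, 3661 and 16275, against 15645, 1234 and 11237, so lower in the NV male alone. The part of these tissues in the region values below was not tested. In the 3 mice with both regions, with the mouse as a block, 5 of 9 members were called between upper airway and parenchyma, as were 42.6% of 13473 genes, 23.4% higher and 19.2% lower. All 3 mice had the same direction upwards for 31.7% and downwards for 34.3% of genes. Nqo1, Srxn1 and Gclm were higher in the upper airway, and Gclc and Nfe2l2 were lower. Scaling to total UMIs instead of TMM moved every value by -0.44 on the log2 scale, so a member's direction is relative to the other genes. With that scaling 66.1% of genes and 6 members were called, Nqo1 higher and Nfe2l2, Keap1, Hmox1, Gclc and Gsr lower.

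With the mice ordered as both NV mice and then the V female, Nqo1 was at 13.5, 8.23 and 5.52 CPM in the upper airway and at 3.54, 3.21 and 2.75 in the parenchyma. It was higher in the airway of all 3 mice (log2 fold change 1.37, SE 0.28, adjusted p = 0.0023, edgeR), and 0.93 with total UMIs. Gclc went the other way, with 36.3, 37.0 and 54.4 CPM in the airway and 73.0, 75.3 and 73.3 in the parenchyma, and no airway value reached a parenchyma value (-0.76, SE 0.14, adjusted p = 0.0011, edgeR). The modifier subunit Gclm thus did not follow its catalytic partner: it was at 36.8, 38.9 and 60.3 CPM in the airway and 29.9, 32.9 and 41.5 in the parenchyma (0.39, SE 0.12, adjusted p = 0.0243, edgeR), and came to -0.046 with total UMIs. The difference between both subunits within a sum does not depend on the scaling.

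Srxn1 was at 21.6, 18.0 and 26.0 CPM in the airway and 14.3, 16.0 and 15.1 in the parenchyma (0.57, SE 0.17, adjusted p = 0.0158, edgeR, and 0.14 and not called with total UMIs). Nfe2l2 was at 109, 93.2 and 132 CPM in the airway and 139, 151 and 152 in the parenchyma (-0.40, SE 0.12, adjusted p = 0.0194, edgeR). Of the members not called, Keap1 was at 0.02 and Txnrd1 at 0.16, which became -0.42 and -0.27 with total UMIs, Hmox1 at -0.10 and Gsr at -0.30 (adjusted p = 0.0992, edgeR). The count of 5 fell to 3 without the NV female (32.4% of all genes), where Nfe2l2 and Gclm were not called. It likewise fell to 3 under the Wald test (31.9%) and without the block (30.1%). Without the V female Gclm and Srxn1 were not called and Gsr was.

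To place the members on finer tissue, the 10% of spots richest in markers of a tissue were compared with the other spots of the same mouse. Such spots are rich in transcripts of a type and are not cells of that type. AT2-rich spots, by Abca3, Lamp3 and 4 other markers of surfactant-making cells, had more Gclc in all 4 mice. The NV mice had 105 and 117 CPM in rich spots and 68.4 and 62.6 in the others, and the V mice 153 and 111 against 115 and 69.7 (0.63, SE 0.09, adjusted p = 0.00071, edgeR). It was the 1 member called there, with 7.38% of genes called, 1.68% called higher and 9.8% higher in all 4 mice. The log2 fold changes of Nfe2l2 (0.29, adjusted p = 0.0876) and Nqo1 (-1.28, adjusted p = 0.0876, edgeR) did not pass, and Nqo1 rested on 1 to 6 UMIs in the rich spots of each mouse. Without the NV male Nqo1 was called (-1.99), and without the V male Nfe2l2 was (0.36).

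In cardiac muscle-rich spots, tested in the 3 mice with an upper airway, 3 of 9 members were called, against 30.7% of genes (17.1% higher, 13.6% lower). Nqo1 was at 15.2, 11.5 and 8.12 CPM in rich and 3.68, 3.38 and 2.87 in other spots (1.72, SE 0.29, adjusted p = 0.00026, edgeR). It was higher in the rich spots of every mouse, as were 29.8% of genes. Gclc (-0.96, SE 0.17, adjusted p = 0.00042, edgeR) and Gsr (-0.55, SE 0.16, adjusted p = 0.0162, edgeR) were lower. In brown adipose tissue-rich spots 2 members were called, against 22.3% of genes (11.6% higher, 10.7% lower). Srxn1 was at 26.5, 18.5 and 38.0 CPM in rich and 13.5, 15.2 and 14.6 in other spots (0.97, SE 0.24, adjusted p = 0.0260, edgeR), and Gclc was lower (-0.87, SE 0.19, adjusted p = 0.0179, edgeR). Without the V female neither was called (6.81% of all genes), and without the NV female Gclc was not (6.38%). In cardiac muscle-rich spots Gsr was not called without the NV male or without the NV female. Scaling to total UMIs moved values of the cardiac and adipose comparisons by -0.48 and -0.45, which kept each direction but not the call of Srxn1.

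Neither club cell-rich nor macrophage-rich spots had a called member (2.12% and 5.52% of genes). In club cell-rich spots Txnrd1 was at 85.4 and 67.2 CPM in the NV and 89.8 and 80.8 in the V mice, and in the other spots at 60.4 and 56.7 and at 76.9 and 58.4. It was higher in the rich spots of all 4 mice, as were 5.68% of genes, by 0.38 (SE 0.11, unadjusted p = 0.0032, adjusted p = 0.10, edgeR). The V male was kept here although its club cell markers summed to 288 CPM of total UMIs, so its rich spots may hold little of this tissue. Without the V male the Txnrd1 value was 0.43. In macrophage-rich spots Gsr was at 54.0 and 60.6 CPM in the NV and 63.3 and 41.3 in the V mice and at 38.7, 35.5, 42.1 and 39.4 in their other spots, a difference of 0.43 on the log2 scale (SE 0.14, adjusted p = 0.0814, edgeR). Hmox1, which alveolar macrophages use to degrade heme, came to 0.48 (SE 0.20, adjusted p = 0.26, edgeR) on 12 to 35 UMIs in the rich spots of a mouse.

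**Figure D4:**
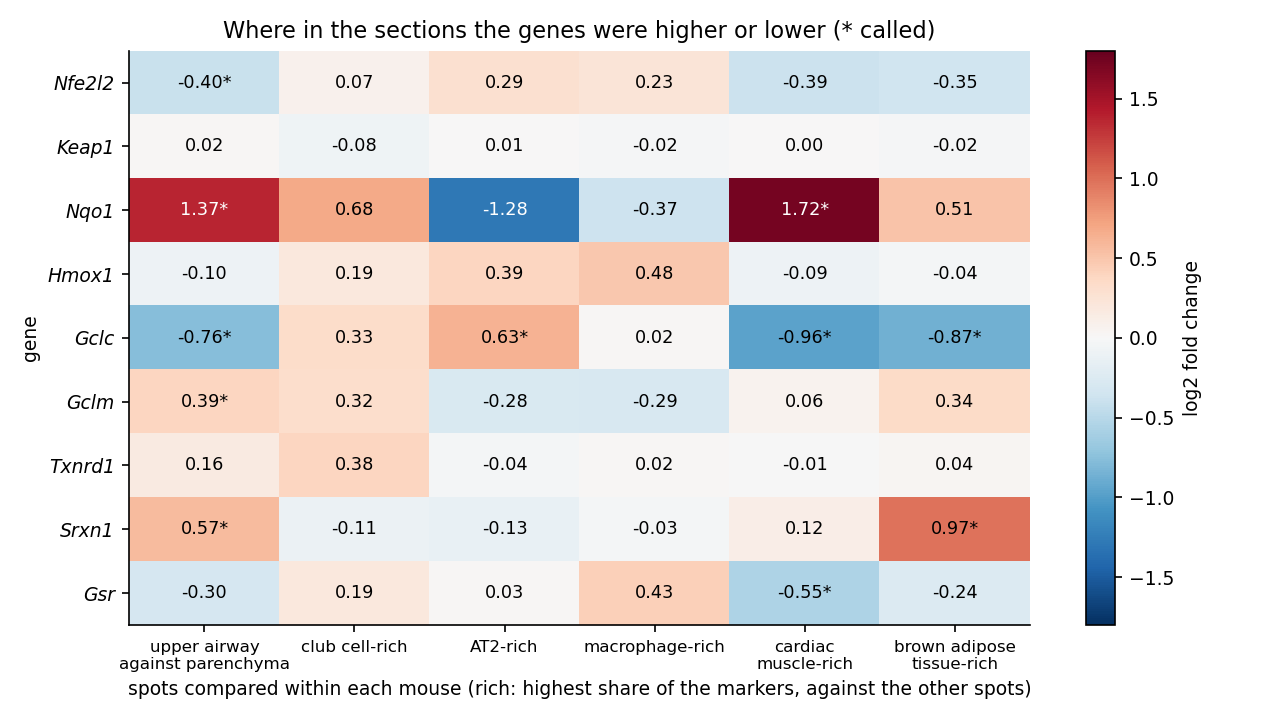
Log2 fold change (colour and number) of the 9 members between upper airway and parenchyma and between marker-rich and other spots of the same mice, with called values starred. Nqo1 is highest in cardiac muscle-rich spots (1.72) and lowest in AT2-rich spots (-1.28), and Gclc runs the other way; with total UMIs the first column shifts by -0.44, where Keap1, Gclm and Txnrd1 change sign.

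Of the 65 other pathway genes 62 were tested in V against NV over the whole section and 0 were called, as were 0% of all genes. Their log2 fold change was positive for 46 of 62, with a median of 0.19, and for 53.7% of all genes, with a median of 0.03. In the parenchyma it was positive for 44 of 61 (median 0.12) and for 51.3% of all genes (median 0.01). Without the V male it was positive for 46 of 63 over the whole section and 42 of 62 in the parenchyma, beside 48.1% and 48.8% of all genes. Without the V female it was positive for 33 of 62 in both (48.7% and 49.3% of all genes). The genes with the smallest unadjusted p included Pir, a Nrf2 target, at 18.0 and 15.1 CPM in NV and 25.3 and 27.9 CPM in V mice (0.69, SE 0.19, adjusted p = 0.9997, edgeR, and 0.74 without the V male). Gsta3, a glutathione transferase, was at 133 and 132 CPM in the NV mice and 346 and 174 in the V mice (0.97, SE 0.39), and came to 0.38 without the V male. With the V female left out Gsta3 was called (1.38, adjusted p = 0.0146, edgeR). Maff, a small Maf partner of Nrf2, had a log2 fold change of -0.62 (SE 0.22) in the parenchyma, and Blvra, which reduces biliverdin after Hmox1, 0.45 (SE 0.17), and without the V male they came to -0.89 and 0.57. None of these passed the test with all 4 mice (adjusted p = 0.9994 in the parenchyma, edgeR).

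In the upper airway, with the V female as the 1 V mouse, 44 of 58 pathway genes were positive, as were 50.4% of all genes, and 1 was called (1.13% of all genes), Gpx2, an epithelial glutathione peroxidase. It had 391 UMIs (23.0 CPM) in the V female and 10 and 2 UMIs (4.57 and 0.65 CPM) in the NV male and female (3.28, SE 0.60, adjusted p = 0.0248, edgeR). Over its whole section the V male had 3.20 CPM of total UMIs, where the V female had 16.6 and the NV mice 5.75 and 2.16. The V male had no upper airway spots and club cell markers of 288 CPM, so its value cannot show whether it shared the airway difference. That difference rests on 1 V mouse, and it was not called with DESeq2 size factors, under the Wald test or at a Leiden resolution of 1.6. Gpx2 was also called in club cell-rich spots (2.72, SE 0.35), as were Ces1g (2.17), Gsta4 (0.86) and Ptgr1 (0.77), 4 of 60 pathway genes beside 2.12% of all genes, and club cell markers differed between the airways as given above. Ces1g, a carboxylesterase, had 47 and 0 UMIs in the rich spots of the NV mice and 2 and 15 in those of the V mice.

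Between regions 22 of 59 pathway genes were called higher in the upper airway and 11 lower, beside 23.4% and 19.2% of all genes. With total UMIs 12 were called higher and 28 lower. All 6 NADPH supply genes were higher, among them Me1, which makes NADPH from malate (2.15, SE 0.20), and Tkt (1.57, SE 0.24) and Taldo1 (0.92, SE 0.22) of the pentose phosphate pathway. With total UMIs these 6 were still above 0, and Pgd (0.38) and Taldo1 (0.48) were not called. Me1 was at 155, 836 and 881 CPM in the airway and at 58.3, 138 and 174 in the parenchyma. Prdx6, a peroxiredoxin of surfactant-making cells, was lower (-1.01, SE 0.14), as was the Nrf2 competitor Bach1 (-0.55, SE 0.12). In brown adipose tissue-rich spots, where Me1 (2.34) and Tkt (2.0) were also higher, 18 of 61 pathway genes were called higher and 5 lower, beside 11.6% and 10.7% of all genes, and 10 and 20 with total UMIs.

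**Figure D5:**
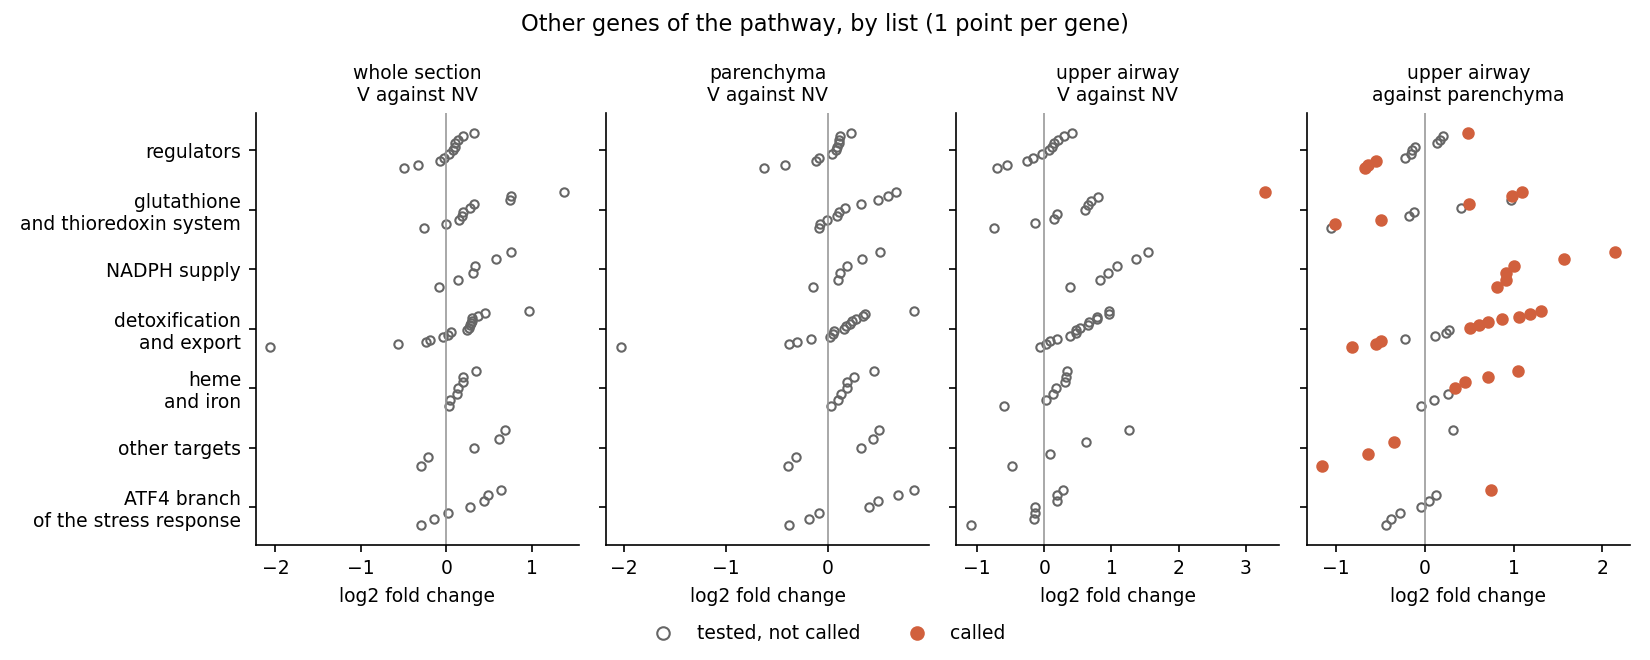
Log2 fold change of the other pathway genes (1 point per gene, filled where called) by list, for V against NV over the whole section, the parenchyma and the upper airway, and for upper airway against parenchyma. In the last panel 22 of 59 genes are called higher and 11 lower (12 and 28 with total UMIs), and Gpx2 at 3.28 is the 1 filled point in the upper airway panel, which sets 1 V mouse against 2 NV mice.

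As a description of pattern, each member was compared with 9895 genes over the same 9 sums. The genes most like Gclc were Afdn (Pearson's r = 0.996), Fgfr3 (0.995) and Cyb561 (0.994), those most like Nqo1 were Fbxo32 (0.98), Tcaim (0.98) and Usp24 (0.97), and those most like Gclm were S100a13 (0.98), Ccs (0.95) and Tmed5 (0.94). These are the highest of many values over few sums, which share libraries and follow region, so shared regulation cannot be read from them. Nqo1 had 8 to 51 UMIs in a sum.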

How the data were processed

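Visium sections of 4 mice were grouped by the labels. The deposited tables hold raw UMI counts of each gene in each spot, made by the authors with SpaceRanger on mm10, and their later Seurat 4.0.3 normalization does not enter them. The members and lists were chosen with earlier results of these data known. All deposited spots were used (473 to 2053 per section, 6957392 to 34308556 UMIs). Clusters were made with scanpy 1.11.5 and leidenalg 0.10.2 at a resolution of 0.8 without the members, the lists, the marker genes and genes on X and Y, and were called parenchyma where its marker sum was at least 50% of that of all spots together. UMIs were summed per mouse and region (at least 50 spots) and compared with edgeR 4.0.16 (TMM, filterByExpr, quasi-likelihood test, Benjamini-Hochberg adjustment). Standard errors were taken from fold changes and F statistics. Marker-rich spots were chosen among spots with at least 1000 UMIs. CPM beside a test are TMM-scaled within that comparison, whereas marker sums are per total UMIs. Counting intervals are 95% and exact. Of the 10 members all but Slc7a11 were tested in every comparison. The figures show each tested member, whereas for some comparisons the text prints a selection of them. Of each pathway list the called genes with the largest change were picked or, with none called, the 2 with the smallest p. Of these genes a selection is printed. Scripts were tested on simulated data. DESeq2 1.42.0, other scalings, filters and regions, and leaving out each mouse were alternatives. Their tallies over the other pathway genes were added after seeing the data.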

Additional observations from a re-analysis of the deposited data

Results flagged for a closer look

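For 7 values the V against NV ratio went one way in the male pair and the opposite way in the female pair. These were 1 of 9 members tested over the whole section and 6 of 9 in the parenchyma. With 1 mouse per group and sex, no difference between the sexes was tested. Over the whole section this was Keap1, for which the male log2 ratio minus the female one was -0.080. In the parenchyma the same difference was 0.58 for Gclc, which was higher in the V male (124 against 85.2 CPM) and close to level in the V female (85.7 against 88.1 CPM). It was -0.47 for Hmox1, 0.28 for Srxn1, 0.26 for Nqo1, 0.072 for Gsr and -0.068 for Nfe2l2. Of these 7, Gclc in the male pair alone had a counting interval that excluded a ratio of 1. Among all genes tested in the parenchyma, 26.2% were higher in V in both pairs and 26.5% lower in both. A further 23.6% were higher in the V male and not in the V female, and the rest went the other way. Over the whole section 27.2% of genes were higher in both pairs and 26.1% lower in both. Opposite pairs were thus common among all genes.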

How the results depend on the processing

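With 2 mice per group and 1 section each, a mouse and its section cannot be told apart, and the depth leaves Nqo1 and Slc7a11 at few UMIs. The count of members called between V and NV was 0 under every alternative run, in the whole section, the parenchyma and the upper airway. Over all genes 0 to 811 were called over the whole section and 0 to 1161 in the parenchyma, most without the V female, and 70 to 733 in the upper airway, most without the low-count filter. Over all comparisons, 76 counts of called members were within 1.5 times the reported one under an alternative and 14 were not. Of the single values under an alternative 468 kept their direction and call, 21 turned direction, 16 gained and 19 lost a call. For marker-rich spots this tally of single values holds only members with an unadjusted p under 0.05 in the main edgeR test.

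Replicate numbers are the sexes, and same-numbered deviations correlated at 0.32 over the whole section and 0.068 in the parenchyma. With the replicate number as a block 0 members were called in both, and Gclm came to 0.47 and 0.41 (adjusted p = 0.94 and 0.93, edgeR). No such block and no test without a mouse was possible for the upper airway of V against NV.

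Between upper airway and parenchyma the count of 5 became 3 under DESeq2's Wald test (31.9% of all genes) and without the block (30.1%). It was 3 to 5 when a mouse was left out (32.4% to 38.9% of all genes, lowest without the NV female). In AT2-rich spots the count of 1 became 2 with total UMIs (7.04% of all genes), without the low-count filter (6.81%) and with the highest 20% of spots (8.84%). It was 0 without the block (0% of all genes) and 1 to 2 without a mouse (2.24% to 13.2%). With total UMIs it was 1 in macrophage-rich spots (5.54% of all genes) and 6 in cardiac muscle-rich spots (54.6% of all genes, 30.7% with TMM). In brown adipose tissue-rich spots it was 4 with the highest 20% of spots (40.1% of all genes) and 0 to 2 without a mouse (6.38% to 33.2%). It was 2 to 4 in cardiac muscle-rich spots without a mouse (22.8% to 36% of all genes).

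Keap1 over the whole section came to -0.0052 with DESeq2 size factors, -0.0053 under the Wald test and -0.021 to 0.019 without a mouse. With regions set by each spot's own markers, Nqo1 and Gsr in the parenchyma were 0.048 and 0.024. Without a mouse, the parenchyma values ran from -0.12 to 0.064 for Nfe2l2, -0.30 to 0.10 for Nqo1, -0.22 to 0.035 for Hmox1, -0.016 to 0.52 for Gclc, -0.056 to 0.38 for Txnrd1, -0.026 to 0.14 for Srxn1 and -0.065 to 0.032 for Gsr. Between regions, total UMIs gave -0.42 for Keap1, -0.046 for Gclm and -0.27 for Txnrd1, and Keap1 was -0.043 without the filter. Without a mouse, Keap1 ran from -0.13 to 0.11 and Hmox1 from -0.23 to 0.11. The cause was not tested.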
